A study of Rattus norvegicus with 16 samples.

Results

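The genes described here are 9 rat genes of the endoplasmic reticulum (ER) stress response and the integrated stress response: Hspa5, Ddit3, Atf4, Xbp1, Trib3, Asns, Hyou1, Pdia4 and Herpud1. They were chosen by name, and each was found through the RefSeq accession that the array gives for its probe. All 9 had 1 probe, all 9 were tested, and they are 9 of the 20471 genes tested on these arrays. RNA from rat brain was labelled with Cy3 and hybridised to 16 one-colour Agilent arrays, 1 per sample, on 2 slides. The 5 control samples are labelled as normal rats that had no middle cerebral artery occlusion (MCAo), an operation that blocks a main artery of the brain and is used as a model of ischaemic stroke. The 5 saline samples come from rats with MCAo given saline, and the 6 hUMSC samples from rats with MCAo given 1000000 human umbilical mesenchymal stem cells (hUMSC) into a vein. The rats were 8 weeks old and the tissue is labelled as taken at 72 h after the occlusion. The labels describe no sham operation, so saline against control compares operated rats with rats that had no operation. They give neither strain, sex, hemisphere or region nor the time of the infusion, and they do not say whether tissue was pooled.

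Proteins that fold badly in the ER are sensed by 3 membrane proteins, PERK, IRE1 and ATF6. PERK phosphorylates the translation factor eIF2 alpha, as do the kinases of the integrated stress response that sense amino acid lack, double-stranded RNA and haem lack. General translation then falls while the mRNA of Atf4 is translated more, and ATF4 switches on genes of amino acid supply and, with prolonged stress, Ddit3 and Trib3. IRE1 splices the mRNA of Xbp1, and XBP1 and ATF6 switch on ER chaperones and the machinery that degrades misfolded ER proteins. Ischaemia is known to disturb ER calcium and protein folding in brain cells. The arrays measured the amount of each mRNA and neither splicing nor translation nor protein.

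The promoters of the genes were searched for 4 DNA elements of these pathways. The elements were the ER stress element ERSE (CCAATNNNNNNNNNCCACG), its variant ERSE-II (ATTGGNCCACG), the unfolded protein response element UPRE (TGACGTGG) and the CARE element (TGATGNAA) bound by ATF4 and its partners. The search covered both strands of 300 bases, from 250 before to 50 after the RefSeq transcription start, in build GRCr8. All 9 genes had such a promoter in the RefSeq table, and the 5 that held a match are printed 5′ to 3′ on the gene's strand with the matches in capitals. Hspa5 lies on the plus strand at chr3:38452766-38453065, Xbp1 on the plus strand at chr14:84604373-84604672, Hyou1 on the plus strand at chr8:53602632-53602931, Herpud1 on the minus strand at chr19:10614658-10614957 and Trib3 on the minus strand at chr3:161275484-161275783.
Hspa5: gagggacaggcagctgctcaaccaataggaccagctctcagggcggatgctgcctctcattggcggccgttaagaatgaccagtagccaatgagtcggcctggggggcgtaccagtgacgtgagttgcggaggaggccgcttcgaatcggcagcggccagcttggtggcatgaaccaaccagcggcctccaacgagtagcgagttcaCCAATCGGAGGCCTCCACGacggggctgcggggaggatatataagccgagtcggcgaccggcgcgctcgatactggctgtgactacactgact
Xbp1: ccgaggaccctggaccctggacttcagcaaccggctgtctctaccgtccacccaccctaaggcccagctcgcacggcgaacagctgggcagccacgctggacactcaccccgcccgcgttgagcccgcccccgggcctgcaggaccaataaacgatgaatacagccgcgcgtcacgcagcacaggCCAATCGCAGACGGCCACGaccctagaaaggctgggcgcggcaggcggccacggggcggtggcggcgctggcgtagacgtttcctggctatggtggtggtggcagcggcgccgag
Hyou1: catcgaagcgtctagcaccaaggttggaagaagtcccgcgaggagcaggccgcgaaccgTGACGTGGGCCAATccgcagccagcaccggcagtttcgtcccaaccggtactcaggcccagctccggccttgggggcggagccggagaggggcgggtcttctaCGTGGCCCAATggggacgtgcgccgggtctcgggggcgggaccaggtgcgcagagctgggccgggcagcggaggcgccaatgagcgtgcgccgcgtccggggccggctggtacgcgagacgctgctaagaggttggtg
Herpud1: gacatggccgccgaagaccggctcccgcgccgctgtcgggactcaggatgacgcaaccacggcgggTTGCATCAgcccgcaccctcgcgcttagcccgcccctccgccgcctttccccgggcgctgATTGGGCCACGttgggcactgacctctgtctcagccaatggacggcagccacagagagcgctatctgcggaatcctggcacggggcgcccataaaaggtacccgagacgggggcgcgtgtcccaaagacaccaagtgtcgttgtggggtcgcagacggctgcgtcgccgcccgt
Trib3: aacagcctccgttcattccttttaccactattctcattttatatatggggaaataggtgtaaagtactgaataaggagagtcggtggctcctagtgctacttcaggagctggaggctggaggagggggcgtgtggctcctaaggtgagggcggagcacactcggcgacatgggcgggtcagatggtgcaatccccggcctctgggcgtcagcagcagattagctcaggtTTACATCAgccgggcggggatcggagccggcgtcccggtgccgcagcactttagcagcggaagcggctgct

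ERSE was found in Hspa5, where it starts 43 bases before the transcription start, and in Xbp1, where it starts 65 bases before it. Of all 33469 promoters of this length in the table, 0.0657% held ERSE. ERSE-II was found at 2 places in Hyou1, at 188 and 88 bases before the start, and once in Herpud1, at 124 bases, against 0.0508% of all promoters. UPRE was found in Hyou1 at 191 bases, where it overlaps the first ERSE-II match, against 0.595% of all promoters. CARE was found in Trib3 at 21 bases and in Herpud1 at 184 bases, on the reverse strand in both, against 3.98% of all promoters. Hyou1 has a further listed start site, whose window held none of the elements. None of these exact letters stood in the windows of Ddit3, Atf4, Asns or Pdia4. The matches describe the sequence only.

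Levels are log2 processed signal minus the array's 75th percentile, so a level of 0 is the signal of the probe at that percentile, and levels of different probes are not compared. Differences between groups are log2 differences with the standard error (SE) of a limma model over all 16 arrays, with 5 control, 5 saline and 6 hUMSC arrays. The test was limma's moderated test with Benjamini-Hochberg adjustment over all 20471 genes, and a gene is said to rise or fall where the adjusted p was under 0.05. Per array, 72.3% to 77.6% of probes were well above background, and all 9 genes were well above background on all 16 arrays. The labels name an RNA kit for blood with removal of globin RNA, although the tissue is given as brain. The neuronal genes Syn1 and Snap25 were at 0.93 to 1.10 and 4.88 to 5.02 in the controls. In the hUMSC arrays they were at -0.07 to 0.40 and 3.70 to 4.29. Saline replicates 1 and 5 stood nearer the controls than the other saline arrays: the mean level of 12 phagocyte genes was 0.98 and 0.12 there, against 2.46 to 2.77 in saline replicates 2, 3 and 4 and -1.39 to -1.15 in the controls. For each of the 9 genes, values without these 2 arrays are given where they move a difference or a call. For the lists of pathway genes, the counts without them are given. Leaving them out was chosen after the data were seen. In bulk tissue, fewer cells of a type and less RNA per cell cannot be told apart. The p-values measure the spread between these samples.

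Against the controls, the 9 genes did not move as a block. In saline rats, Trib3 and Pdia4 rose, and none of the 9 fell. Over all genes tested, 14.3% rose and 12.8% fell in that comparison. In hUMSC rats, Trib3 and Pdia4 also rose, while Ddit3, Atf4 and Asns fell. Over all genes tested, 24.7% rose and 37.3% fell there, so 2 of 9 higher and 3 of 9 lower lie near those shares. Hspa5, Xbp1, Hyou1 and Herpud1 did not pass the test in either comparison. Between hUMSC and saline rats none of the 9 passed it, where 4.82% of all genes rose and 7.98% fell. At an unadjusted p under 0.05 there were 5, 5 and 3 of the 9 in saline against control, hUMSC against control and hUMSC against saline, where 40.8%, 66.1% and 37.1% of all genes were under it. No gene of the 9 differed by 2-fold or more in any of the 27 comparisons. The median change of the 9 was -0.01, -0.10 and -0.10 in these comparisons, beside -0.04, -0.13 and -0.07 over all genes. Saline against control and hUMSC against control use the same 5 control arrays.

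**Figure D1:**
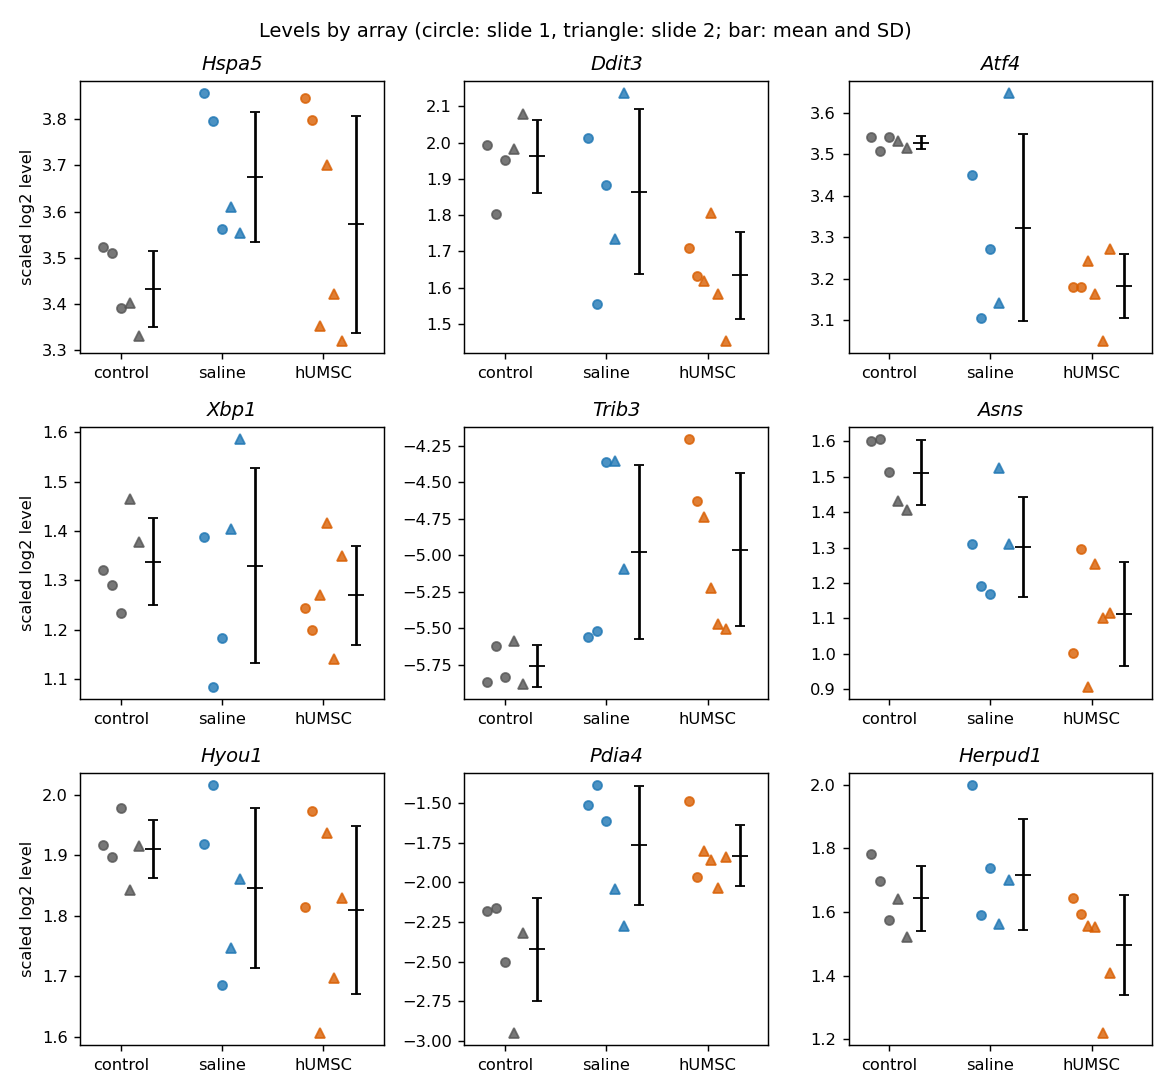
Scaled log2 level (y axis, no unit, log2 of signal over the array's 75th percentile) of each of the 9 genes on each array, by group on the x axis, with circles for slide 1, triangles for slide 2 and bars for the mean and SD. Each panel has its own range. Atf4 is tight in the 5 controls, between 3.51 and 3.54, and all 6 hUMSC arrays lie below it, while for Trib3 all 11 occluded arrays lie above the controls.

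Among the transcription factors, Atf4 is the one on which the eIF2 alpha kinases converge. Its level was 3.54, 3.51, 3.54, 3.53 and 3.52 in controls 1 to 5. It was 3.45, 3.11, 3.27, 3.14 and 3.65 in saline arrays 1 to 5. Saline replicate 5 was above every control, and the other 4 were below every control. In the 6 hUMSC arrays the lowest level was 3.05, the median 3.18 and the highest 3.27, so that all lay below every control. Atf4 fell in hUMSC against control, with a log2 difference of -0.35 ± 0.08 (SE), which is 1.27-fold lower (adjusted p = 0.00232). Against the median of all genes in that comparison it was lower by a log2 difference of -0.22. In saline against control the log2 difference was -0.20 ± 0.09 (SE), with an adjusted p of 0.0917. Atf4 passed the test there without saline replicate 5 (-0.29, adjusted p = 0.00647), and without saline replicates 1 and 5 together (-0.36, adjusted p = 0.000453). It also passed with the median of each array as its scale (-0.27, adjusted p = 0.0285). The order of its levels from high to low was control, saline, hUMSC, and neither pair of neighbours in that order passed the test. Without saline replicates 1 and 5 the saline level lay just below that of hUMSC, with a log2 difference of 0.01 in hUMSC against saline (adjusted p = 0.956), so the place of saline in the order rests on those 2 arrays.

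Ddit3 encodes CHOP, a factor that ATF4 induces and that is known for its part in cell death under lasting ER stress. Its level was 1.99, 1.80, 1.95, 1.98 and 2.08 in controls 1 to 5, and 2.01, 1.56, 1.88, 1.73 and 2.14 in saline arrays 1 to 5. The saline arrays spanned a wider range than the controls and overlapped them at both ends. In the hUMSC arrays the lowest level was 1.45, the median 1.62 and the highest 1.81, and 5 of the 6 lay below every control. Ddit3 fell in hUMSC against control by 0.33 on the log2 scale (SE 0.09, 1.26-fold, adjusted p = 0.00755). It was -0.10 ± 0.10 (SE) in saline against control (adjusted p = 0.49), and -0.24 ± 0.09 (SE) without saline replicates 1 and 5 (adjusted p = 0.0512). Between hUMSC and saline the log2 difference was -0.23 ± 0.09 (SE), with a 95% interval of -0.43 to -0.03 and an adjusted p of 0.0987. Without saline replicate 2, the lowest of its group, it passed the test (-0.31, adjusted p = 0.0311), and without saline replicates 1 and 5 together the difference was -0.09 (adjusted p = 0.686). The order of the levels was control, saline, hUMSC, with no neighbours that differed by the test.

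Xbp1 encodes the factor whose mRNA IRE1 splices. Its level was 1.32, 1.29, 1.23, 1.47 and 1.38 in controls 1 to 5, and 1.39, 1.08, 1.18, 1.40 and 1.59 in saline arrays 1 to 5. The hUMSC arrays ran from 1.14 through a median of 1.26 to 1.42. The 3 groups overlapped throughout. The log2 difference was -0.01 ± 0.09 (SE) in saline against control, with a 95% interval of -0.20 to 0.18. It was -0.07 ± 0.08 (SE) in hUMSC against control, with an interval of -0.25 to 0.11, and -0.06 ± 0.08 (SE) in hUMSC against saline, with an interval of -0.24 to 0.12. Without saline replicates 1 and 5 the log2 difference was -0.11 ± 0.09 (SE) in saline against control (adjusted p = 0.304) and 0.05 ± 0.08 (SE) in hUMSC against saline (adjusted p = 0.834). The intervals over all arrays reached as low as -0.25 in hUMSC against control and as high as 0.18 in saline against control. They leave room for log2 differences of those sizes in the total mRNA of Xbp1.

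Asns and Trib3 are both known as ATF4 targets, and in hUMSC rats they moved in opposite directions. Asns encodes asparagine synthetase, which makes asparagine from aspartate. Its level was 1.60, 1.61, 1.51, 1.43 and 1.41 in controls 1 to 5. It was 1.31, 1.19, 1.17, 1.53 and 1.31 in saline arrays 1 to 5, where all but replicate 4 were below every control. The hUMSC arrays had a lowest level of 0.91, a median of 1.11 and a highest of 1.29, and all 6 were below every control. Asns fell in hUMSC against control by 0.40 on the log2 scale (SE 0.08, 1.32-fold, adjusted p = 0.000692), the largest fall of the 9 genes. Against the median of all genes it was lower by a log2 difference of -0.27. In saline against control the log2 difference was -0.21 ± 0.09 (SE, adjusted p = 0.0777), and without saline replicate 4 it passed the test (-0.27, adjusted p = 0.0419). It also passed with the median as the scale (-0.28, adjusted p = 0.0286). On slide 1 the saline difference was -0.35 and on slide 2 it was -0.000546. In hUMSC against saline Asns was at -0.19 ± 0.08 (SE), with an adjusted p of 0.111. Without saline replicates 1 and 5 it was at -0.18 there (adjusted p = 0.459) and at -0.22 in saline against control (adjusted p = 0.109).

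Trib3 encodes a pseudokinase that is induced through ATF4 and CHOP and is known to dampen ATF4 and AKT signalling. It was dim, with a processed signal of 31.1 to 45.4 in the controls, 38.1 to 99.3 in the saline arrays and 35.9 to 117 in the hUMSC arrays. As a level this was -5.87, -5.62, -5.83, -5.59 and -5.88 in controls 1 to 5, and -5.56, -5.52, -4.36, -4.35 and -5.10 in saline arrays 1 to 5. Every saline array lay above every control, narrowly for replicates 1 and 2 and widely for replicates 3 and 4. The hUMSC arrays ran from -5.50 through a median of -4.98 to -4.20, again all above the controls. Trib3 rose in saline against control by 0.78 ± 0.28 log2 units (SE, 1.72-fold, adjusted p = 0.0482), which is just inside the threshold. It rose in hUMSC against control by 0.80 ± 0.27 (SE, 1.74-fold, adjusted p = 0.0167).

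The call for Trib3 in saline rats was lost in each of 10 fits that left out 1 array: any control, saline replicate 3 or 4, or hUMSC replicate 6, 7 or 8, with adjusted p up to 0.129. Without saline replicates 1 and 5 together Trib3 rose by 1.02 in saline rats (adjusted p = 0.0175). Its change was 0.42 in saline and 0.36 in hUMSC rats with normexp background correction, and both passed the test (adjusted p = 0.0483 and 0.0382). That correction added an offset of 50 to every signal. An offset of this size makes the log2 differences of a probe as dim as Trib3 smaller. Within slide 1 the change of Trib3 was 0.63 in saline and 1.36 in hUMSC rats, and within slide 2 it was 1.01 and 0.50. The 2 spots of Trib3 on an array differed by a median of 0.24 log2 units, against 0.04 to 0.12 for the other genes with 2 spots. Atf4 has 10 spots, of which the highest and lowest differed by a median of 0.12. The largest gap on any array was 0.68 for Trib3 and 0.69 for Hspa5. Between hUMSC and saline the log2 difference of Trib3 was 0.02 ± 0.27 (SE), with a wide 95% interval of -0.55 to 0.58. Without saline replicates 1 and 5 it was -0.22 ± 0.30 (SE, adjusted p = 0.783).

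**Figure D2:**
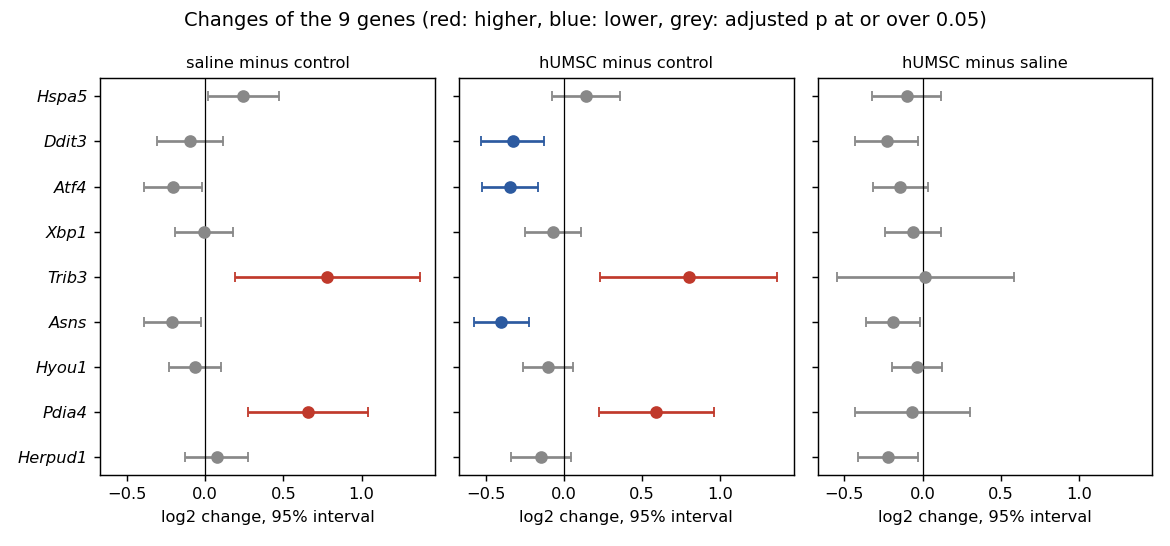
Log2 difference of each of the 9 genes (x axis, log2 units) in the 3 comparisons, with the 95% interval of the limma model as bars, red for genes that rose, blue for genes that fell and grey for adjusted p at or over 0.05. Trib3 and Pdia4 are red in both comparisons with the controls, Ddit3, Atf4 and Asns are blue in hUMSC against control, and all 9 are grey in hUMSC against saline.

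Of the ER chaperones, Hspa5 encodes BiP, the main Hsp70 chaperone of the ER and the protein that holds the sensors inactive. Its level was 3.52, 3.51, 3.39, 3.40 and 3.33 in controls 1 to 5, and 3.86, 3.80, 3.56, 3.61 and 3.55 in saline arrays 1 to 5. The saline arrays all lay above the controls, but replicates 3 and 5 only narrowly. The hUMSC arrays ran from 3.32 through a median of 3.56 to 3.85, with 3 of 6 above every control. Both hUMSC arrays on slide 1, at 3.85 and 3.80, stood above the 4 on slide 2, which lay between 3.32 and 3.70. The log2 difference in saline against control was 0.24 ± 0.11 (SE), with a 95% interval of 0.01 to 0.47 and an adjusted p of 0.102. It passed the test with slide as a block (0.24, adjusted p = 0.0397). In hUMSC against control the log2 difference was 0.14 ± 0.10 (SE, adjusted p = 0.242), and with slide as a block it was 0.20 and passed the test (adjusted p = 0.0447). Hspa5 was at -0.10 ± 0.10 (SE) in hUMSC against saline, with an interval of -0.32 to 0.12. Without saline replicates 1 and 5 it was at -0.08 there (adjusted p = 0.795) and at 0.22 in saline against control (adjusted p = 0.161).

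Hyou1 encodes a large Hsp70-related chaperone of the ER that rises in oxygen lack and works with BiP as an exchange factor. Its level was 1.92, 1.90, 1.98, 1.84 and 1.91 in controls 1 to 5, and 1.92, 2.02, 1.69, 1.75 and 1.86 in saline arrays 1 to 5. The hUMSC arrays ran from 1.61 through a median of 1.82 to 1.97. The occluded arrays scattered around and below the narrow range of the controls, with overlap in both groups. The log2 difference was -0.06 ± 0.08 (SE) in saline and -0.10 ± 0.07 (SE) in hUMSC against control, and the 95% intervals reached from -0.23 to 0.10 and from -0.26 to 0.06. In hUMSC against saline it was -0.04 ± 0.07 (SE), with an interval of -0.19 to 0.12. With saline replicates 1 and 5 left out, Hyou1 was at -0.09 ± 0.09 (SE) in saline against control (adjusted p = 0.444) and at -0.01 ± 0.09 (SE) in hUMSC against saline (adjusted p = 0.979).

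Pdia4 encodes ERp72, a disulphide isomerase of the ER that helps to fold secreted proteins. Its level was -2.18, -2.16, -2.50, -2.95 and -2.32 in controls 1 to 5. It was -1.51, -1.39, -1.61, -2.04 and -2.28 in saline arrays 1 to 5, of which all but replicate 5 lay above every control. The hUMSC arrays had a lowest level of -2.04, a median of -1.85 and a highest of -1.48, and all 6 lay above every control. Pdia4 rose in saline against control by 0.66 ± 0.18 log2 units (SE, 1.58-fold, adjusted p = 0.0168). In hUMSC against control it rose by 0.59 ± 0.17 (SE, 1.51-fold, adjusted p = 0.0079). Without saline replicate 2, the highest of its group, the saline change was 0.56 with an adjusted p of 0.051. Without saline replicates 1 and 5 together the saline change was 0.74 (adjusted p = 0.00616). Within slide 1 the change was 0.78 in saline and 0.56 in hUMSC rats, and within slide 2 it was 0.47 and 0.75. Between hUMSC and saline the log2 difference was -0.06 ± 0.17 (SE), with an interval of -0.43 to 0.30, and without saline replicates 1 and 5 it was -0.15 ± 0.18 (SE, adjusted p = 0.749).

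Herpud1 encodes a membrane protein of the ER that organises the complex for degrading misfolded proteins. Its level was 1.78, 1.70, 1.57, 1.64 and 1.52 in controls 1 to 5, and 2.00, 1.59, 1.74, 1.56 and 1.70 in saline arrays 1 to 5. The hUMSC arrays ran from 1.22 through a median of 1.55 to 1.65. Saline replicate 1 was the single saline array above the controls, and 2 of 6 hUMSC arrays lay below them. The log2 difference was 0.07 ± 0.09 (SE) in saline and -0.15 ± 0.09 (SE) in hUMSC against control, with adjusted p of 0.59 and 0.168. In hUMSC against saline it was -0.22 ± 0.09 (SE), with a 95% interval of -0.41 to -0.03 and an adjusted p of 0.0964, and 4 of 6 hUMSC arrays were below every saline array. The order of its levels was saline, control, hUMSC, and no neighbours in it differed by the test. The saline difference from control was 0.004 without saline replicate 1 and -0.01 without saline replicates 1 and 5, so the place of saline above control rests on those arrays. Without both, hUMSC against saline was at -0.13 ± 0.09 (SE) (adjusted p = 0.56).

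**Figure D3:**
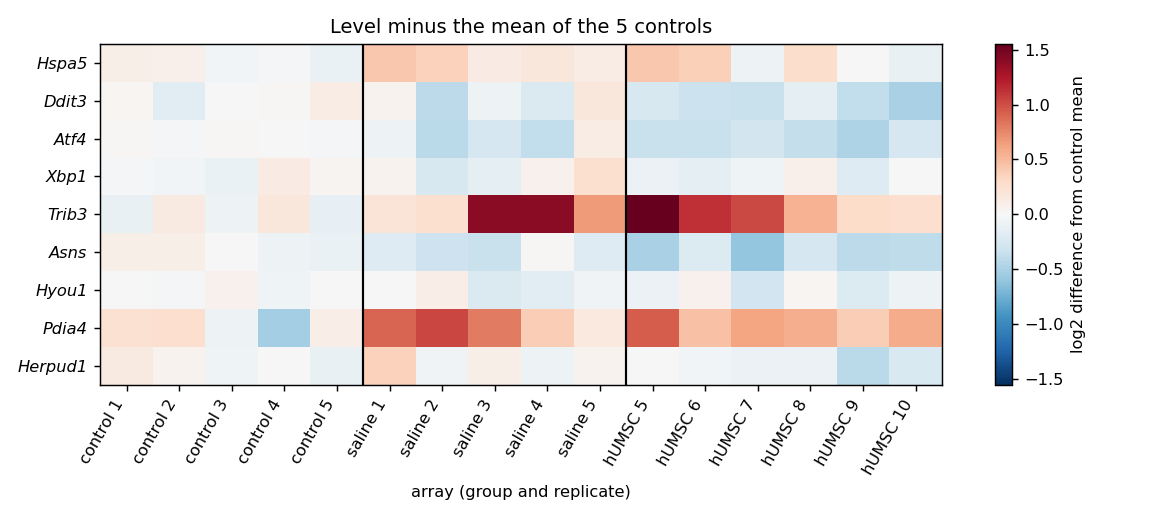
Log2 difference of each gene (rows) from the mean of the 5 controls on each of the 16 arrays (columns, by group and replicate), in colour from blue for lower to red for higher on a log2 scale. Trib3 and Pdia4 are red across most occluded arrays and Atf4 and Asns are blue across the hUMSC arrays, while saline replicate 5 is above the control mean for Atf4 and Ddit3.

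The 5 calls in hUMSC against control held in each of the 16 fits that left out 1 array. Within slide 1, with 2 hUMSC and 3 control arrays, Hspa5, Trib3 and Pdia4 rose and Atf4 and Asns fell. Of all 20471 genes, 10868 passed the test there. Within slide 2, with 4 hUMSC and 2 control arrays, Pdia4 alone of the 9 passed the test, as did 6180 of all 20471 genes. There Ddit3 was at -0.42, Atf4 at -0.34 and Asns at -0.33, with adjusted p of 0.0643, 0.111 and 0.0723. Within slide 1 Ddit3 was at -0.25 (adjusted p = 0.183). In saline against control, Pdia4 passed the test on slide 1, where 3029 of all 20471 genes did. None of the 9 did on slide 2, where 1 of all 20471 genes did.

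How the 9 genes vary among themselves was described by Pearson's r of their deviations from the group means over the 16 arrays, which share slides and scaling. Over the 36 pairs r ran from -0.57 to 0.67 with a median of 0.10, and 5 pairs were above 0.5. These were Ddit3 with Atf4 (0.67), Atf4 with Xbp1 (0.67), Hspa5 with Hyou1 (0.64), Ddit3 with Xbp1 (0.63) and Hspa5 with Herpud1 (0.60). Without saline replicates 1 and 5, over 14 arrays, r was 0.17 for Ddit3 with Atf4, 0.26 for Atf4 with Xbp1 and 0.33 for Ddit3 with Xbp1, so the high r of the transcription factors rests on those 2 arrays. Without them it was 0.65 for Hspa5 with Hyou1 and 0.57 for Hspa5 with Herpud1. Trib3 had its highest r with Herpud1, at 0.19, and at 0.60 without those arrays, and the lowest r of all was that of Xbp1 with Pdia4, at -0.57, or -0.47 without them. Each gene was also set against 11521 other named genes that were above background on every array, and the pair with the most similar deviations is given for 8 of the 9. For Hspa5 they were Dhrs7b and Hif1an (0.90 and 0.89), for Ddit3 Pias1 and Mal (0.90 and 0.89), and for Xbp1 Polr2m and Gas2 (0.90 and 0.88). For Trib3 they were Wbp1l and Eif3l (0.91 and 0.89), for Asns Rassf6 and Cxadrl1 (0.88 and 0.86), and for Hyou1 Thumpd1 and Arl2 (both 0.89). For Pdia4 they were Ryk and Efnb1 (0.80 and 0.78), and for Herpud1 Prpf4b and Naa20 (0.91 and 0.89). The r of these 16 pairs was 0.73 to 0.94 without saline replicates 1 and 5. The highest of many correlations is high by selection.

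Around the 9 genes, 8 lists of other genes of the pathways held 138 genes, of which 124 were measured. In saline against control 23 of the 124 rose (18.5%) and 9 fell (7.26%), beside the 14.3% and 12.8% over all genes. In hUMSC against control 50 rose (40.3%) and 32 fell (25.8%), beside 24.7% and 37.3%. Between hUMSC and saline rats 10 rose and 5 fell, beside 4.82% and 7.98% over all genes. The count of 15 moved with single arrays: 1 gene passed without saline replicate 1, 2 without saline replicate 5, 4 without hUMSC replicate 5 and 4 without hUMSC replicate 7, and 5 without hUMSC replicate 6. Without any one control 9 or 10 passed, and 25 without saline replicate 2. The count over all 20471 genes moved too. It was 2620 with all arrays, 184 without saline replicate 1, 378 without saline replicate 5 and 4267 without saline replicate 2. With hUMSC replicate 5, 6 or 7 left out it was 594, 722 and 757, and without any one control 1736 to 1884. Without saline replicates 1 and 5 together none of the 124 passed the test, and 23 of all 20471 genes did. Without those arrays 38 of the 124 rose and 18 fell in saline against control. Of all 20471 genes 9033 passed in that fit, 4053 of them higher and 4980 lower. The count of 32 in saline against control was 19 without saline replicate 2 and 20 without saline replicate 3. Of all genes, 3199 and 3285 passed in those fits, beside 5561 with all arrays. With the median as the scale the saline counts were 17 higher and 22 lower, and of all genes called in that comparison 32.8% were higher, against 52.7% with the 75th percentile.

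The list nearest to Ddit3, Trib3 and Atf4, other targets of ATF4 and stress regulators, had 15 measured genes, of which 6 rose and 2 fell in saline rats and 6 rose and 3 fell in hUMSC rats against the controls. Its median change was -0.004 in saline and 0.10 in hUMSC rats. Without saline replicates 1 and 5, 6 of the 15 rose and 3 fell in saline rats. Atf3, a stress-induced factor of the same family as ATF4, rose by 2.42 ± 0.42 log2 units (SE) in saline and by 3.37 ± 0.40 (SE) in hUMSC rats (adjusted p = 0.00169 and 1.44e-05). Gdf15, a stress hormone, rose by 1.39 ± 0.41 and 2.44 ± 0.39. Eif4ebp1, which represses cap-dependent translation, rose by 0.96 ± 0.22 and 1.61 ± 0.21. Trib2, a relative of Trib3, fell by 0.48 and 0.71 on the log2 scale, and Vldlr, a lipoprotein receptor, by 0.43 and 0.63. Chac1, an enzyme that breaks down glutathione, fell by 0.44 in hUMSC rats. In the same comparison in which Atf4, Ddit3 and Asns fell, Atf3 and Gdf15 thus rose.

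Beside Asns, amino acid synthesis and transport had 18 measured genes, of which 2 rose and 3 fell in saline rats and 9 rose and 5 fell in hUMSC rats. Aldh1l2, a mitochondrial folate enzyme, rose by 1.44 ± 0.22 and 2.23 ± 0.21. In hUMSC rats Mthfd2, also of mitochondrial folate metabolism, rose by 0.72 and Cth, which makes cysteine, by 0.56. Slc6a9, a glycine transporter, fell by 0.43 and 0.48, and Cbs, which makes cystathionine, by 0.48 and 0.43. With saline replicates 1 and 5 left out, 6 of these 18 genes rose and 4 fell in saline rats. Of 18 aminoacyl-tRNA synthetases, which load amino acids onto tRNA, 4 rose and 10 fell in hUMSC rats and 1 rose and 2 fell in saline rats. Yars1 fell by 0.33 in saline and 0.39 in hUMSC rats, Sars1 by 0.22 and 0.33, and Iars1 by 0.34 in hUMSC rats, while Qars1 rose by 0.20 and 0.30. The synthetases' median change in hUMSC rats was -0.16, beside -0.13 over all genes. Without saline replicates 1 and 5, 2 synthetases rose and 6 fell in saline rats, and 3 rose and 10 fell in hUMSC rats.

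Beside Hspa5, Hyou1 and Pdia4, other ER chaperones and disulphide enzymes had 21 measured genes, of which 4 rose in saline rats and 9 rose and 3 fell in hUMSC rats. Sdf2l1, a partner of BiP, rose by 0.96 ± 0.17 and 1.24 ± 0.17, P4hb, the founding disulphide isomerase, by 0.55 ± 0.15 and 1.07 ± 0.15, and Erp44, which retains proteins in the early secretory pathway, by 0.44 and 0.63. Hspa13, a further Hsp70 relative, fell by 0.24 in hUMSC rats. The median change of this list was 0.09 in saline and 0.16 in hUMSC rats against the controls. With saline replicates 1 and 5 left out, 6 of its genes rose in saline rats. Of 14 genes of the translocon and signal peptide processing, which bring new proteins into the ER, 2 rose in saline rats and 7 rose and 1 fell in hUMSC rats. Sec61b, a subunit of the translocon channel, rose by 0.42 and 0.79, Ssr4 by 0.32 and 0.63, and Sec61a1, the channel itself, by 0.75 in hUMSC rats, where Sec63 fell by 0.41. Of the 14 translocon genes, 5 rose and 1 fell in saline rats without those 2 saline arrays.

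Beside Herpud1, ER-associated degradation had 14 measured genes, of which 2 rose in saline rats and 3 rose and 3 fell in hUMSC rats. Edem2, which trims the sugars of misfolded proteins, rose by 0.43 and 0.82, and Ube2j1, a ubiquitin-conjugating enzyme, by 0.26 and 0.36. Sel1l, the adaptor of the HRD1 ligase, rose by 0.46 in hUMSC rats, while Syvn1, which encodes HRD1 itself, fell by 0.31. Without saline replicates 1 and 5, 3 of these 14 genes rose in saline rats and none fell. Among 15 sensors and regulators of eIF2 alpha, 3 rose and 2 fell in saline rats and 5 rose and 5 fell in hUMSC rats. Eif2ak2, the kinase that senses double-stranded RNA, rose by 0.38 and 0.89, and Dnajc3, an inhibitor of these kinases, by 0.55 and 0.56. Atf6, a sensor of the ER membrane, rose by 0.31 in saline rats, while Atf6b, its relative, fell by 0.24. In control, saline and hUMSC arrays the mean level of Atf6 was -0.86, -0.55 and -0.51. That of Atf6b was -0.26, -0.51 and -0.47. Eif2ak1, the kinase that senses haem lack, fell by 0.55 and Creb3l2, a relative of ATF6, by 0.62 in hUMSC rats. Without those 2 saline arrays, 3 of the 15 sensors and regulators rose and 3 fell in saline rats.

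Of 9 measured genes of cell death under ER stress, the process for which Ddit3 is known, 3 rose in saline rats, and 7 rose and 2 fell in hUMSC rats. Casp4 and Casp12, caspases of the inflammatory family, rose by 1.14 and 1.06 in saline and by 1.68 and 1.30 in hUMSC rats. Bcl2 and Bcl2l1, which restrain cell death, were the genes that fell in hUMSC rats, by 0.58 and 0.17. Bcl2l11, which promotes it, rose by 1.19 in hUMSC rats, although its probe was well above background on 1 control, 2 saline and 4 hUMSC arrays. Ddit3 itself fell in the same comparison. With saline replicates 1 and 5 left out, 7 of the 9 death genes rose and 1 fell in saline rats, and 7 rose and 2 fell in hUMSC rats. Of all 20471 genes, 4053 rose and 4980 fell in saline rats in that fit, and 5129 rose and 7785 fell in hUMSC rats.

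**Figure D4:**
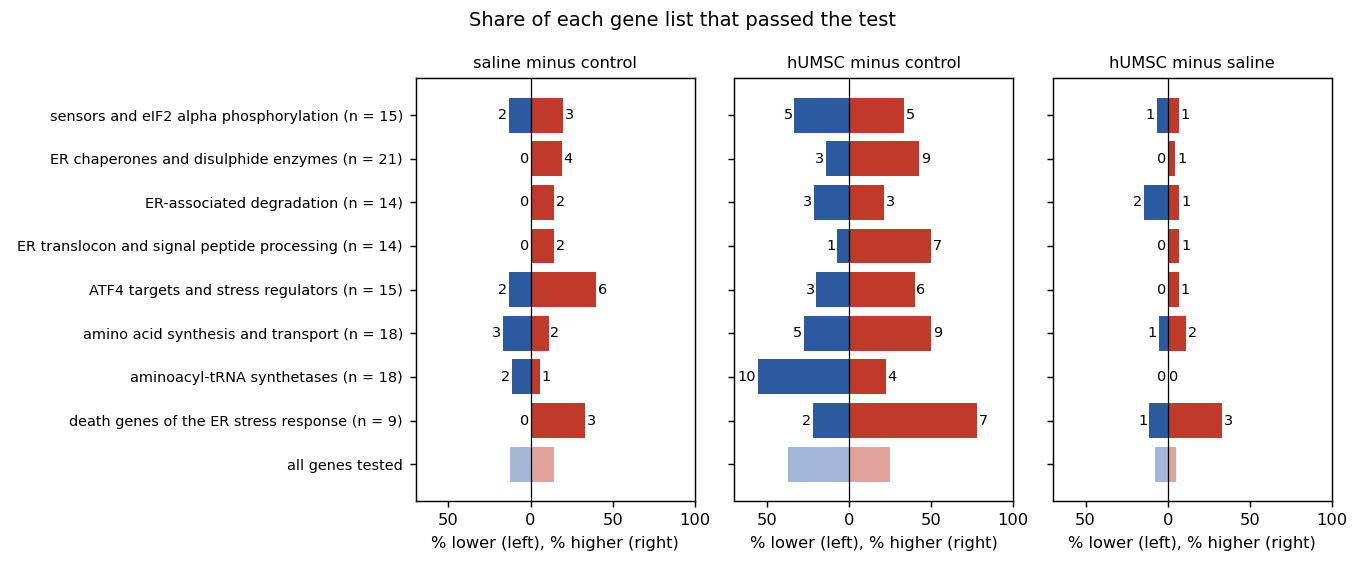
Share of the measured genes of each list (x axis, percent) that rose (red, to the right) or fell (blue, to the left) in the 3 comparisons, with the number of genes at each bar and the share over all genes tested as the pale bar at the bottom. In hUMSC against control 7 of 14 translocon genes rose and 10 of 18 aminoacyl-tRNA synthetases fell, beside 24.7% and 37.3% of all genes.

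Markers of several other cell types moved with these groups. The mean level of 12 phagocyte genes was -1.39 to -1.15 in the controls, 0.12 to 2.77 in the saline and 2.49 to 3.44 in the hUMSC arrays, and all 12 rose in both comparisons with the controls. Cd68, a lysosomal protein of phagocytes, was at -2.52 to -2.07, -0.46 to 2.28 and 2.10 to 2.97. The mean of 7 microglial genes was 0.85 to 1.10, 1.35 to 2.19 and 1.93 to 2.24, and that of 7 genes of dividing cells -3.82 to -3.74, -2.44 to -0.23 and -0.70 to 0.42. The mean of 3 measured neutrophil genes was -5.48 to -3.46, -4.12 to -2.76 and -2.78 to -0.65. The mean of 10 neuronal genes was 2.57 to 2.65, 2.05 to 2.50 and 1.66 to 2.06, and 5 of the 10 fell in saline and 9 in hUMSC rats. The mean of 8 astrocyte genes was 2.55 to 2.75, 2.93 to 3.39 and 3.25 to 3.37, and 3 of the 8 rose and 1 fell in saline rats, and 4 rose and 2 fell in hUMSC rats, against the controls. Gfap, their filament protein, was at 0.38 to 0.93, 1.71 to 3.31 and 3.11 to 4.01, while Slc1a2, their main glutamate transporter, fell by 0.48 and 0.89 on the log2 scale. The mean of 6 endothelial genes was -1.74 to -1.49, -1.98 to -1.54 and -1.58 to -0.84; 1 of them fell in saline against control, and 4 rose in hUMSC against control and 4 in hUMSC against saline. The mean of 5 measured T cell genes was -6.39 to -5.91, -6.38 to -5.46 and -6.03 to -5.02, and 3 rose in hUMSC against control and 2 in hUMSC against saline. In hUMSC against saline the 3 neutrophil genes also rose and 5 of 10 neuronal genes fell. No endothelial, T cell or neutrophil gene passed there with array weights, with those groups alone in the fit or without saline replicates 1 and 5. Of the neuronal genes 1 passed with those groups alone and 0 in the other 2 fits. Of all 20471 genes, 123, 47 and 23 passed in these fits. With slide as a block 5 endothelial, 2 T cell and 3 neutrophil genes rose. None of 6 choroid plexus genes and none of 4 measured red blood cell genes passed the test in any comparison. The mean of 7 oligodendrocyte genes was 3.79 to 3.98, 3.16 to 3.72 and 3.45 to 3.65. Of the 9 genes of B and plasma cells, cells that need XBP1 for secretion, 2 were measured, with a mean of -5.95 to -5.38, -5.98 to -5.24 and -6.05 to -5.36, and neither passed the test. The part of these cell types in the changes of the 9 genes and of the lists was not tested.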

How the data were processed

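Total RNA from rat brain was measured on 16 arrays. Per the file headers, the scanner files hold an intensity per spot, the processed signal, from which Agilent Feature Extraction 11.0.1.1 (100.0.1.1 per the submitters' processing notes) had removed background and spatial trend, unscaled between arrays, and spot marks as flags. The values that the authors deposited as one table are also intensities and equal the mean processed signal over a probe's spots. No probe was saturated on any array, and the number of arrays limits the precision.

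Outlier spots were dropped, log2 signals averaged per probe and the 75th percentile of the array subtracted. Of 30367 probes, 9 had no usable spot, and 18355 matched 15443 RefSeq symbols by accession without version. Probes well above background on 5 or more arrays were tested, and the brightest probe stood for a gene, which left 20471 genes. Probe positions were not used, since the array annotation names an older build; promoters are RefSeq's, in GRCr8. A limma 3.58.1 model (R 4.3.3, with files read by fread of data.table, version 1.17.8) gave each group a mean over all 16 arrays. The model was tested on simulated data in which all groups had the spread of the controls, so unequal spread was not tested. In the data the median SD of a gene was 0.11 in the control, 0.21 in the saline and 0.19 in the hUMSC arrays. The replicate numbers that control and saline share in the labels were not used in the model.

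The genes and lists were chosen with earlier results of these data known. Of each list, up to 3 called genes per direction and comparison with the largest change were eligible to be named, besides the 9 genes. The alternatives tried were the background correction, the scaling, the filter on dim probes, the rule for several probes, array weights, the groups in the fit, the slide, the authors' deposited values, the replicate block and leaving out each array. The genes most like Atf4 are not reported here.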

Additional observations from a re-analysis of the deposited data

How the results depend on the processing

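In saline against control, 2 of the 9 genes passed the test, both higher. With quantile normalization, with no filter on dim probes and on slide 1 alone 1 passed, and on slide 2 alone 0 did. With the median as the scale 3 passed, 1 of them higher. With array weights Atf4 passed besides Trib3 and Pdia4, and was lower. With those groups alone in the fit, or slide as a block, Hspa5 passed besides them and was higher. Of all 20471 genes 5561 passed in the main fit, 6104 with quantile normalization and 7255 with the median. With array weights 9237 did, with those groups alone 5049, with slide as a block 6617, on slide 1 3029 and on slide 2 1. With no filter 4430 of 26779 did. Over the fits that left out 1 array, 1 to 3 passed and 1 to 2 were higher. With the replicate block 2 passed, Hspa5 (adjusted p = 0.0453) and Pdia4 (adjusted p = 0.0367), while Trib3 missed the threshold (adjusted p = 0.0576). There 3199 of all 20471 genes passed. Whether the shared numbers pair the samples cannot be told from the arrays. Deviations of same-numbered control and saline arrays correlated at -0.05, 0.18, 0.01, 0.11 and 0.17. Of the 5 control arrays, 2 correlated best with the saline array of their own number. Same-numbered arrays also share a slide, so a pairing and the slide are not separated here. In hUMSC against control, 5 passed, 2 of them higher. With slide as a block, where 13706 of all 20471 genes passed, Hspa5 passed as well and was higher. On slide 2 alone 1 of the 9 passed, which was higher, where 6180 of all 20471 genes passed. In hUMSC against saline, 0 passed, and 0 to 1 did over the fits that left out 1 array. No direction reversed among called genes.

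Of 124 genes of the lists, 32 passed in saline against control, and 55 with array weights, 21 with the replicate block, 16 on slide 1 and 0 on slide 2. Of all 20471 genes, 5561 passed in that comparison, and 9237, 3199, 3029 and 1 in these settings. In hUMSC against saline 15 passed, and 1 with array weights, 38 with slide as a block and 0 with those groups alone in the fit. Of all 20471 genes, 2620 passed in that comparison, 123 with array weights, 6394 with slide as a block and 47 with those groups alone. Of the 2620 called genes 37.7% were higher, and of those called with the median as the scale 50.6% were. The saline arrays 1 and 5 were left out together only after the data were seen. Trib3 was well above background on all arrays but dim. Its saline change of 0.78 was 0.42 with normexp background correction, which added an offset of 50 to every signal. Trib3 still passed the test there (adjusted p = 0.0483). The small number of arrays per slide limits the calls within a slide.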
